A study of Caenorhabditis elegans with 20 samples.

Results

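The germline genes described here are *pgl-1*, *pgl-3*, *glh-1*, *glh-2*, *glh-4*, *nos-1*, *nos-2*, *deps-1*, *gld-1* and *gld-2*. They were chosen by name, for their roles in P granules or in the control of germ cell RNA, and every one of the 10 was found among the 19861 named entries of the expression tables. RNA sequencing of 20 samples in 8 groups covered sorted gonadal cells and unsorted whole animals of *C. elegans* first-stage larvae, in both sexes, after 15 hr of feeding (2 samples per group) and after 9.5 hr (3 samples per group). The gonadal cells were sorted for Venus driven by the *ehn-3a* promoter in the array *rdIs4*, and are the somatic gonadal precursors Z1 and Z4 at 9.5 hr and the daughters of these cells at 15 hr. Whole animals are dissociated cells that were not sorted, which still hold the gonadal cells. Male gonadal cells and male whole animals came from strain DZ683, with the genotype *tra-2(ar221); xol-1(y9); rdIs4*, whose XX animals become pseudomales at the restrictive temperature. Hermaphrodite gonadal cells at both times and hermaphrodite whole animals at 15 hr came from DZ685, with *xol-1(y9); rdIs4*. Hermaphrodite whole animals at 9.5 hr carried *xol-1(y9)* but lacked *rdIs4*, so they came from another strain than the hermaphrodite gonadal cells of that time. Every group therefore carried *xol-1(y9)*, and a difference between the sexes cannot be told apart from one due to *tra-2(ar221)*. Any comparison that uses hermaphrodite whole animals at 9.5 hr also differs in *rdIs4*, and that part cannot be told apart either.

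P granules are RNA and protein condensates that sit at the nuclear pores of *C. elegans* germ cells, and they are inherited by the germ lineage from the oocyte onwards. PGL proteins form the core of the granule, GLH proteins are helicases related to Vasa that hold it at the nuclear envelope, and DEPS-1 acts in its assembly. The nanos and GLD proteins control the translation, stability or poly(A) tail of germ cell mRNAs. In the larval gonad, Z1 and Z4 enclose the germ cell precursors Z2 and Z3, so germ cells were the immediate neighbours of the sorted cells and were part of the whole-animal samples.

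Levels are FPKM, the number of sequenced fragments per kilobase of transcript scaled to the number of mapped fragments, and the tables hold 1 pooled value per group. No spread between samples, standard error or test can be given for any value below, and neighbouring values in an order of levels cannot be called different. A log2 ratio is the log2 of (FPKM + 1) in the first group over (FPKM + 1) in the second, which understates differences of low genes. A ratio of 2 or more in size is called past the cutoff. Sums of FPKM ranged from 692941 to 784031 over the 8 groups, and the number of genes with at least 1 FPKM from 12506 to 17947. Levels of 6 markers of somatic gonad precursors were also examined. Of these, *ckb-3*, *pes-1*, *fkh-6* and *gem-4* had mean log2 ratios of 3.95, 3.84, 3.13 and 2.57 in gonadal cells over whole animals, whereas *ehn-3* and *hnd-1* did not follow throughout. The study had already reported the first 4 as gonad-enriched in the same data, so they are no independent check of the sorted cells. *ehn-3*, the gene whose promoter drives the sorted label, had 2.08 FPKM in gonadal cells of males and 0.287 FPKM in those of hermaphrodites at 15 hr, against 10.7 and 8.97 FPKM at 9.5 hr. In hermaphrodites at 15 hr it was lower in gonadal cells than in whole animals, which had 0.592 FPKM. *hnd-1*, also a marker of these precursors, stayed at or below 2.30 FPKM in all groups and was lower in gonadal cells in all 4 comparisons, with a mean ratio of -0.69. In bulk RNA, fewer germ cells in a sample and less RNA per germ cell cannot be told apart.

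*pgl-1* lies on chromosome IV at 6974431 to 6977307 of ce10, on the minus strand, and encodes a constitutive component of P granules (WBGene00003992, protein coding). At 15 hr it had 9.09 FPKM in gonadal cells of males and 3.83 FPKM in those of hermaphrodites, against 44.0 and 55.7 FPKM in whole animals of each sex. At 9.5 hr the gonadal cells had 4.27 FPKM in males and 3.60 FPKM in hermaphrodites, against 22.5 and 36.5 FPKM in the whole animals of each sex. All 4 gonadal values were below all 4 whole-animal values. Here and for the genes below, such a lack of overlap sets levels of separate runs side by side. The share of all genes without overlap was not computed. The log2 ratio of gonadal cells over whole animals was -2.16 (male) and -3.55 (hermaphrodite) at 15 hr, and -2.16 and -3.03 at 9.5 hr. As plain FPKM, hermaphrodite gonadal cells held 6.88% of the whole-animal level at 15 hr and male gonadal cells 20.6%.

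*pgl-3*, on chromosome V at 4755971 to 4758569, encodes a PGL protein that is also a constitutive granule component. It had 1.93 FPKM in gonadal cells of males and 0.673 FPKM in those of hermaphrodites at 15 hr, against 11.9 and 15.7 FPKM in whole animals. At 9.5 hr it had 1.16 and 0.608 FPKM in gonadal cells, against 5.89 and 12.5 FPKM in whole animals, male value first in each pair. The level was below that of *pgl-1* in every group, but the pattern over the 8 groups was close to that of *pgl-1*, with no overlap between gonadal cells and whole animals. Its log2 ratios were -2.14 (male) and -3.32 (hermaphrodite) at 15 hr, and -1.67 and -3.07 at 9.5 hr.

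*deps-1*, whose entry spans 506480 to 510840 on chromosome I, more than the gene itself, had the third lowest mean ratio of the 10 genes. Gonadal cells had 2.53 FPKM in males and 1.77 FPKM in hermaphrodites at 15 hr, against 18.1 and 20.9 FPKM in whole animals. At 9.5 hr the values were 2.28 and 2.50 FPKM in gonadal cells, against 9.44 and 16.5 FPKM in whole animals. Gonadal cells were again below whole animals without overlap, with log2 ratios of -2.44 and -2.98 at 15 hr and -1.67 and -2.32 at 9.5 hr. The entry spans the gene *Y65B4BL.7*, which had the opposite order, with 4.35 and 10.9 FPKM in male and hermaphrodite gonadal cells at 15 hr, against 2.00 and 2.75 FPKM in whole animals. Whether reads were counted by strand is not given in the sources used here, so exchange of reads between these overlapping genes was not tested.

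The 3 GLH helicase genes all lie on chromosome I, *glh-1* at 6854687 to 6857528, *glh-2* at 6514022 to 6517508 and *glh-4* at 3726014 to 3731221. *glh-1*, which encodes the Vasa-related helicase best known as a granule anchor, was by far the highest of them. It had 35.0 FPKM in gonadal cells of males and 26.3 FPKM in those of hermaphrodites at 15 hr, against 60.6 and 73.5 FPKM in whole animals. The 9.5 hr values were 16.5 and 20.3 FPKM in gonadal cells, against 31.02 and 40.8 FPKM in whole animals. Within each time the gonadal cells were lower in both sexes, but the male gonadal value at 15 hr exceeded the male whole-animal value at 9.5 hr. The log2 ratios were -0.78 (male) and -1.45 (hermaphrodite) at 15 hr, and -0.87 and -0.97 at 9.5 hr, so *glh-1* did not pass the cutoff in any of the 4 comparisons.

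*glh-2*, a close paralog of *glh-1*, had 0.973 and 0.366 FPKM in male and hermaphrodite gonadal cells at 15 hr, against 3.87 and 4.70 FPKM in whole animals. Earlier, at 9.5 hr, it had 0.763 and 0.654 FPKM, against 3.27 and 4.83 FPKM. Reads that match both paralogs could have been divided between them, so the split of levels between *glh-1* and *glh-2* is uncertain. *glh-4*, a more diverged family member, had 2.84 and 1.78 FPKM in gonadal cells at 15 hr, against 7.71 and 9.74 FPKM in whole animals, and 2.78 and 1.80 FPKM at 9.5 hr, against 5.31 and 6.70 FPKM. Both genes were lower in gonadal cells in all 4 comparisons, without overlap. The ratio of *glh-2* was -2.06 in hermaphrodites at 15 hr, just past the cutoff, and that of *glh-4* was -1.95, just inside it.

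*nos-1* and *nos-2* encode nanos proteins, which act together in the survival and quiescence of primordial germ cells, *nos-2* from maternal RNA and *nos-1* after its own transcription in the germ cell precursors. *nos-1*, on chromosome II at 10951819 to 10953105, had 0.721 FPKM in gonadal cells of males and 0.340 FPKM in those of hermaphrodites at 15 hr, against 1.41 and 3.23 FPKM in whole animals. At 9.5 hr it had 0.208 and 0.419 FPKM in gonadal cells, against 4.55 and 8.16 FPKM in whole animals. The gonadal cells were below 1 FPKM throughout, and the whole-animal level was lower at 15 hr than at 9.5 hr in both sexes. The log2 ratio was -0.49 in males and -1.66 in hermaphrodites at 15 hr, against -2.20 and -2.69 at 9.5 hr. On plain FPKM, male gonadal cells had 51.0% of the whole-animal level at 15 hr and 4.57% at 9.5 hr.

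*nos-2*, whose entry spans 7065010 to 7069924 on chromosome II, more than the gene itself, did not reach 1 FPKM in any group. It passed the filter on low values in none of the comparisons. It had 0.425 and 0.301 FPKM in male and hermaphrodite gonadal cells at 15 hr, against 0.336 and 0.420 FPKM in whole animals. The earlier values, at 9.5 hr, were 0.257 and 0.205 FPKM, against 0.540 and 0.961 FPKM. Its highest value was in hermaphrodite whole animals at 9.5 hr. The entry shares its locus with *him-14*, a meiotic recombination gene with 6.95 and 7.65 FPKM in male and hermaphrodite whole animals at 15 hr, so the assignment of reads there is uncertain.

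Among the genes that passed the filter on low values, *gld-1* and *gld-2* had the mean ratios of gonadal cells over whole animals that were least below 0 or above it. *gld-1*, on chromosome I at 7695677 to 7698219, encodes a KH-domain translational repressor that promotes meiotic entry and oocyte fate. It had 5.33 FPKM in gonadal cells of males and 5.24 FPKM in those of hermaphrodites at 15 hr, against 8.70 and 10.1 FPKM in whole animals. At 9.5 hr it had 3.80 and 5.85 FPKM, against 6.14 and 8.66 FPKM. The gonadal cells were lower in each comparison, with log2 ratios between -0.50 and -0.84. In hermaphrodites at 9.5 hr this was less than the shift of the median gene, and the sign turned to 0.12 once the median of all genes was subtracted.

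*gld-2*, on chromosome I at 6369967 to 6386145, encodes a cytoplasmic poly(A) polymerase that lengthens tails of germline mRNAs. It was the only one of the 10 with higher values in gonadal cells in all 4 comparisons. It had 101 FPKM in gonadal cells of males and 79.0 FPKM in those of hermaphrodites at 15 hr, against 52.1 and 54.7 FPKM in whole animals. At 9.5 hr it had 96.4 and 93.1 FPKM, against 54.9 and 54.4 FPKM. All 4 gonadal values lay above all 4 whole-animal values, which themselves spanned less than 3 FPKM. The level in gonadal cells was 1.94-fold that of whole animals in males at 15 hr and 1.44-fold in hermaphrodites, and at 9.5 hr 1.76-fold and 1.71-fold. The log2 ratios of 0.95, 0.52, 0.80 and 0.76, in the same order, were inside the cutoff.

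**Figure D1:**
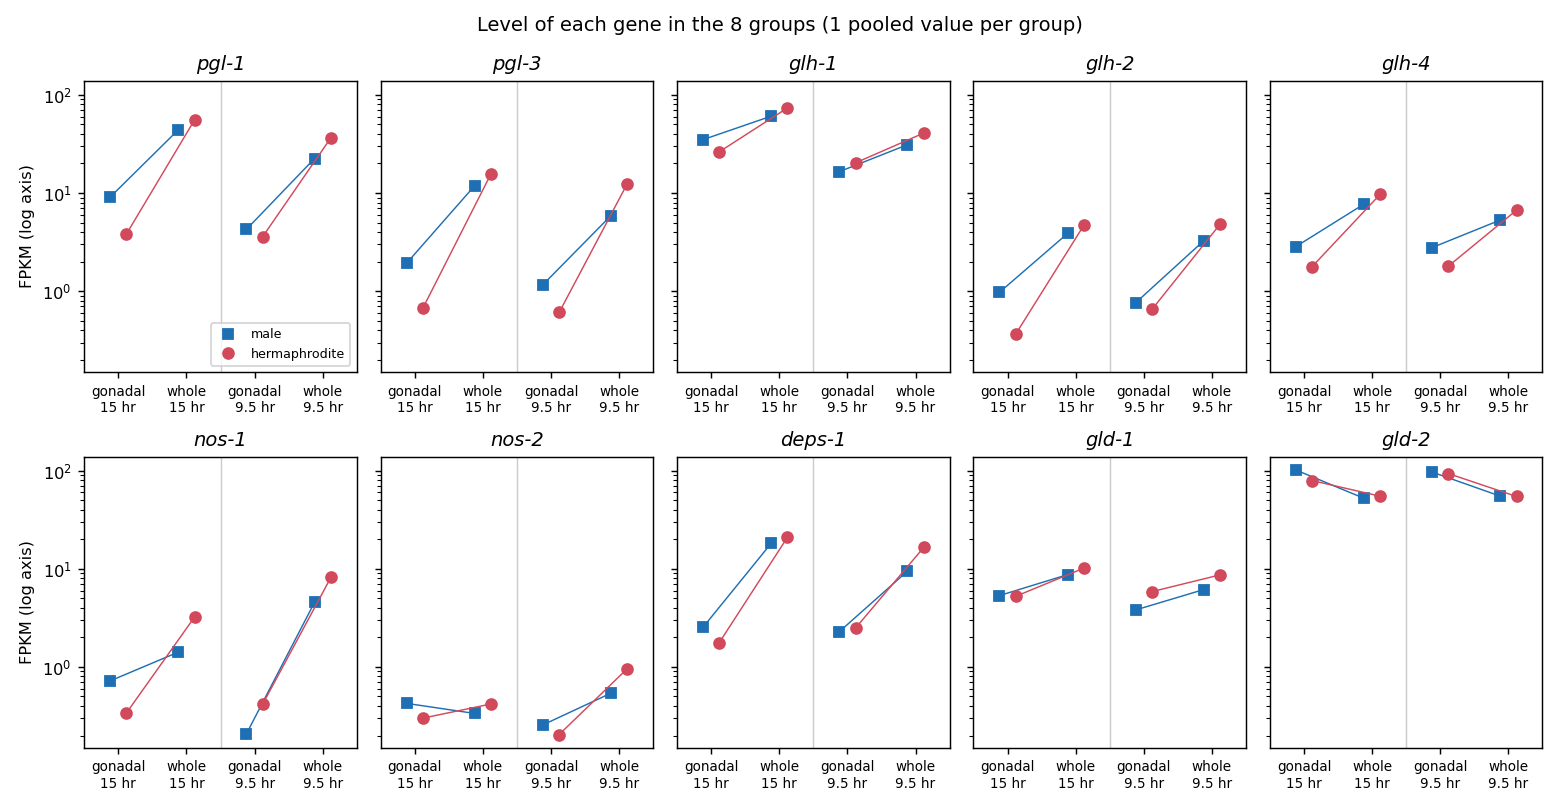
Level of each gene in FPKM (log axis) in gonadal cells and whole animals at 15 hr and 9.5 hr, with squares for males and circles for hermaphrodites. Each point is 1 pooled value without an error bar, and lines join gonadal cells to whole animals of the same sex and time. Most lines climb to the whole animals, whereas *gld-2* is higher in gonadal cells, at 101 FPKM against 52.1 FPKM in whole animals in males at 15 hr.

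Compared with the median gene, the group as a whole was low in sorted gonadal cells. In males at 15 hr, 3 of the 10 genes were lower by the cutoff (*pgl-1*, *pgl-3* and *deps-1*), where 15.4% of all genes tested were. In hermaphrodites at 15 hr, 4 were (*glh-2* in addition), where 22.2% of all genes were. At 9.5 hr, 2 of 10 passed in males (*pgl-1* and *nos-1*), where 12.2% of all genes did, and 4 of 10 in hermaphrodites (*pgl-1*, *pgl-3*, *nos-1* and *deps-1*), where 13.1% did. None of the 10 was higher by the cutoff in any comparison. Few genes of any kind were, since the 95th percentile of all genes tested lay between 1.36 and 1.72. Where a counted gene was under 1 FPKM in gonadal cells (*pgl-3* in hermaphrodites at both times, *glh-2* in hermaphrodites at 15 hr, *nos-1* in both sexes at 9.5 hr), it entered through the whole-animal value alone. With at least 1 FPKM required in both groups, the counts were 2 instead of 4 in hermaphrodites at each time and 1 instead of 2 in males at 9.5 hr. Fewer genes were then counted, 6 in hermaphrodites and 7 in males at 9.5 hr. The share of all genes under that filter was not computed. With a ratio of -1 as the limit, the counts were 5 of 10 in males and 7 of 10 in hermaphrodites at 15 hr, beside 34.3% and 38.2% of all genes, and 5 and 6 of 10 at 9.5 hr, beside 31% and 40.2%.

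Below 0 lay 8 of 10 genes in males and 9 of 10 in hermaphrodites at 15 hr, beside 52.2% and 53.5% of all genes, and 9 of 10 in each sex at 9.5 hr, beside 57.2% and 62.3%. These counts include *nos-2*, which did not pass the filter on low values. The median ratio of the 10 genes was -0.98 (male) and -1.80 (hermaphrodite) at 15 hr, and -1.07 and -1.64 at 9.5 hr. The median of all genes tested was itself below 0, at -0.10 and -0.22 at 15 hr and at -0.29 and -0.62 at 9.5 hr. After this shift was subtracted, 33 of the 40 ratios of the 10 genes were below 0, compared with 35 of 40 before, the changed signs being those of *gld-1* in hermaphrodites at 9.5 hr and of *nos-2* in hermaphrodites at 15 hr. No gene then passed the cutoff in males at 9.5 hr.

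Most markers of other tissues were also low in the sorted cells, with exceptions. Summed over 6 body wall muscle genes, the level in gonadal cells was 49.7% of that in whole animals in males at 15 hr and 23.8% in hermaphrodites, and 35.5% and 23.3% at 9.5 hr. Over 3 coelomocyte genes, the sum was 12.7% and 4.17% at 15 hr, and 7.37% and 7.80% at 9.5 hr. Over 8 neuronal genes, it was between 27.5 and 38.5% in the 4 comparisons, and over 5 intestinal and 4 pharyngeal genes between 18.8 and 43.6%. The sum of 6 hypodermal genes was 30.6 to 47.1% in 3 comparisons but 110% in hermaphrodites at 9.5 hr, and *che-14* of that list was higher in gonadal cells in all 4. The pharyngeal marker *pha-4* had 159 FPKM in gonadal cells of hermaphrodites at 15 hr, against 80.1 FPKM in whole animals, and the intestinal marker *elt-2* had 9.57 FPKM in male gonadal cells at 9.5 hr, against 3.36 FPKM in whole animals. These 3 genes were singled out after their values were seen. Of the muscle, neuronal and coelomocyte markers, none was listed at 0 in gonadal cells. *pgl-1*, at 6.88 to 20.6% of the whole-animal level, lay between the coelomocyte and muscle sums in each comparison, while *gld-2* lay above 100% in all 4. How much of the germline RNA in sorted cells came with unsorted cells was not tested.

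**Figure D2:**
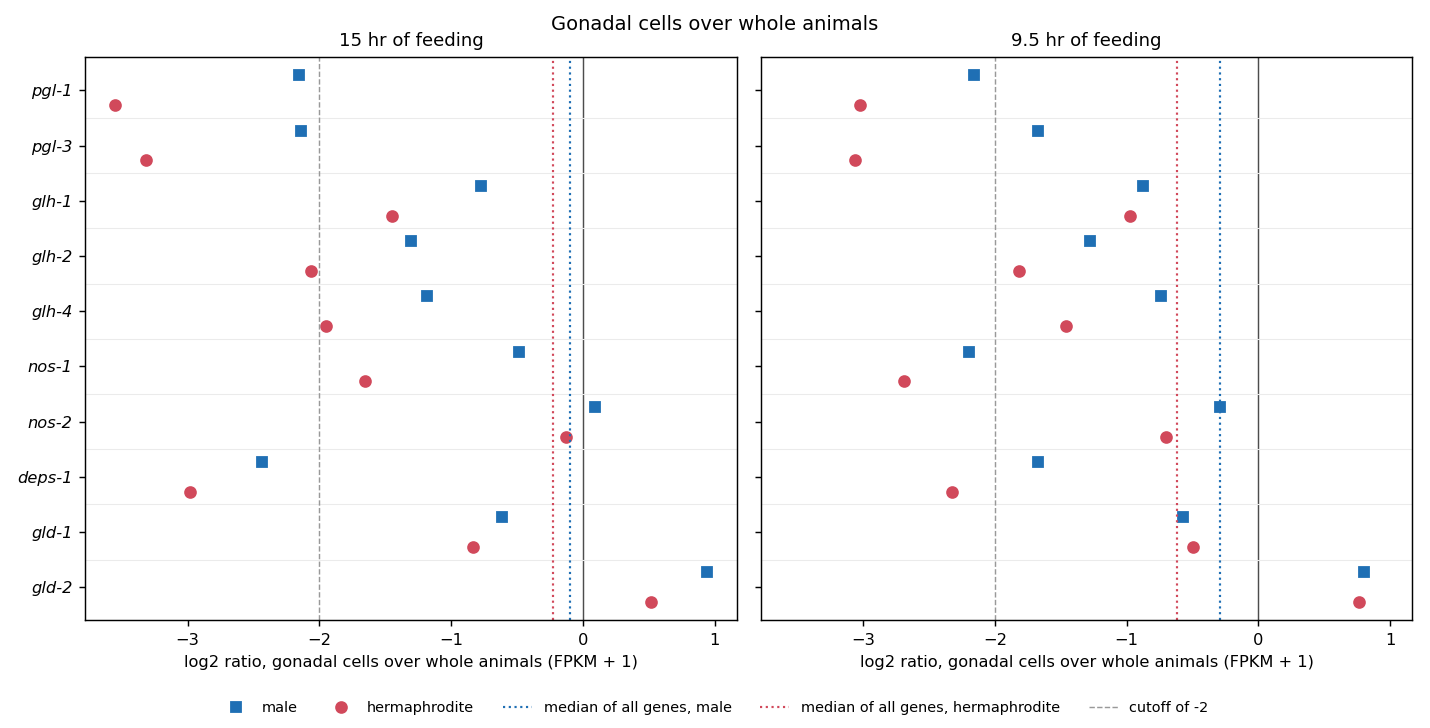
Log2 ratio of gonadal cells over whole animals for each gene at 15 hr and 9.5 hr, with squares for males and circles for hermaphrodites. Dotted lines mark the median of all genes tested in each sex and the dashed line the cutoff of -2. *pgl-1* in hermaphrodites at 15 hr lies farthest to the left, at -3.55, and *gld-2* is to the right of 0 throughout.

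Relative to whole animals, gonadal cells had lower levels of most of these genes in hermaphrodites than in males. The ratio of gonadal cells over whole animals was higher in males for 10 of 10 genes at 15 hr and for 9 of 10 at 9.5 hr, with a median difference of 0.71 and 0.52 on the log2 scale. Over all genes the difference was above 0 for 57.8% at 15 hr and 59.2% at 9.5 hr, with medians of 0.12 and 0.11. The difference was widest for *pgl-1* at 15 hr (1.39) and *pgl-3* at 9.5 hr (1.39), and the exception was *gld-1* at 9.5 hr (-0.07). By construction, it is the male over hermaphrodite ratio in gonadal cells minus that in whole animals. At 15 hr the gonadal term was above 0 and the whole-animal term below 0 for 10 of 10 genes, *gld-1* excepted under other scalings. That share of all genes was not computed, and *nos-2* failed the filter on low values. Markers of other tissues also had lower medians in hermaphrodites at 15 hr. They were, male value first, -1.25 and -2.37 for body wall muscle, -1.82 and -2.72 for neurons, and -2.92 and -4.51 for coelomocytes. The other P granule genes went the other way, at 0.02 and 0.13. At 9.5 hr muscle had -1.89 and -2.46, but hypodermis -3.12 and -1.11.

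In whole animals, the 10 genes had lower levels in males. At 15 hr, 10 of 10 were below the hermaphrodite value, beside 48.3% of all genes, with a median log2 ratio of -0.25 where the median of all genes was 0.01. At 9.5 hr, 9 of 10 were, beside 58.1% of all genes, with a median of -0.44 against -0.07 for all genes. *pgl-3* had a ratio of -0.97 at 9.5 hr, from 5.89 FPKM in males and 12.5 FPKM in hermaphrodites, and *nos-1* had -0.81 at 15 hr and -0.72 at 9.5 hr. *gld-2* was nearly the same in the sexes, at -0.07 and 0.01. No ratio reached 1 in size, beside 5.41% of all genes at 15 hr and 6.14% at 9.5 hr. Markers of muscle and neurons were near 0 in the same comparison, with medians of -0.02 and -0.02 at 15 hr and of 0.04 and 0.01 at 9.5 hr. Other somatic lists were lower in males at 15 hr by more than the 10 genes were, with medians of -0.58 for the pharynx (4 of 4 genes lower), -0.51 for coelomocytes (3 of 3) and -0.33 for the intestine (4 of 5). At 9.5 hr these lists had medians of 0.46, 0.04 and 0.04. Other germline lists, described below, were lower in males too at 9.5 hr. Medians were -0.95 for meiotic genes (12 of 12 lower) and -0.64 for other RNA regulators (13 of 17). The other P granule genes had -0.38 (14 of 16), sperm and oocyte genes -0.23, and germline chromatin genes with *glp-1* -0.12. At 15 hr the medians were -0.08, -0.11, -0.07, 0.16 and 0.21 in that order. Hypodermal markers, many of them collagen genes, had a median of 1.53 at 9.5 hr and summed to 204 FPKM in whole animals of the male sex and 71.0 FPKM in hermaphrodites. Whether the sexes were at the same point of larval development in these samples was not tested.

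In gonadal cells the direction was the opposite at 15 hr. There, 10 of 10 genes were higher in males, beside 56.3% of all genes (*gld-1* excepted under other scalings), with a median of 0.38 where that of all genes was 0.09. At each time, only 7 of the 10 had at least 1 FPKM in either sex, which the share of all genes requires. *pgl-1* was the one gene with a ratio over 1 in size (1.06, from 9.09 FPKM in males and 3.83 FPKM in hermaphrodites), beside 14.5% of all genes, and *pgl-3* followed at 0.81. The ratio of *gld-1* was 0.02, and it turned to -0.08 when FPKM were scaled to equal sums and to -0.07 relative to the median of all genes. At 9.5 hr, 6 of 10 genes were higher in male gonadal cells, beside 50.7% of all genes, *gld-2* turning from 0.05 to -0.0072 with equal sums. The median was 0.06, and none reached 1 in size, beside 6.63% of all genes. *gld-1* had the largest ratio in size at that time, -0.51.

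Several marker lists moved in the same direction in male gonadal cells at 15 hr. All 6 body wall muscle genes were higher in males, with a median of 1.08 and a sum of 655 FPKM in males and 320 FPKM in hermaphrodites. All 3 coelomocyte genes were higher, with a median of 1.08, as were 7 of 8 neuronal genes (0.77) and 6 of 6 hypodermal genes (0.83). Markers of somatic gonad precursors were higher too, with a median of 0.87 and sums of 413 and 245 FPKM. The 16 other P granule genes, described below, went the other way with a median of -0.31, while the remaining germline lists had 0.11 to 0.27. Intestinal and pharyngeal lists had medians of 0.01 and -0.10. The part of these other cells in the male excess of *pgl-1* and *pgl-3* was not tested.

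**Figure D3:**
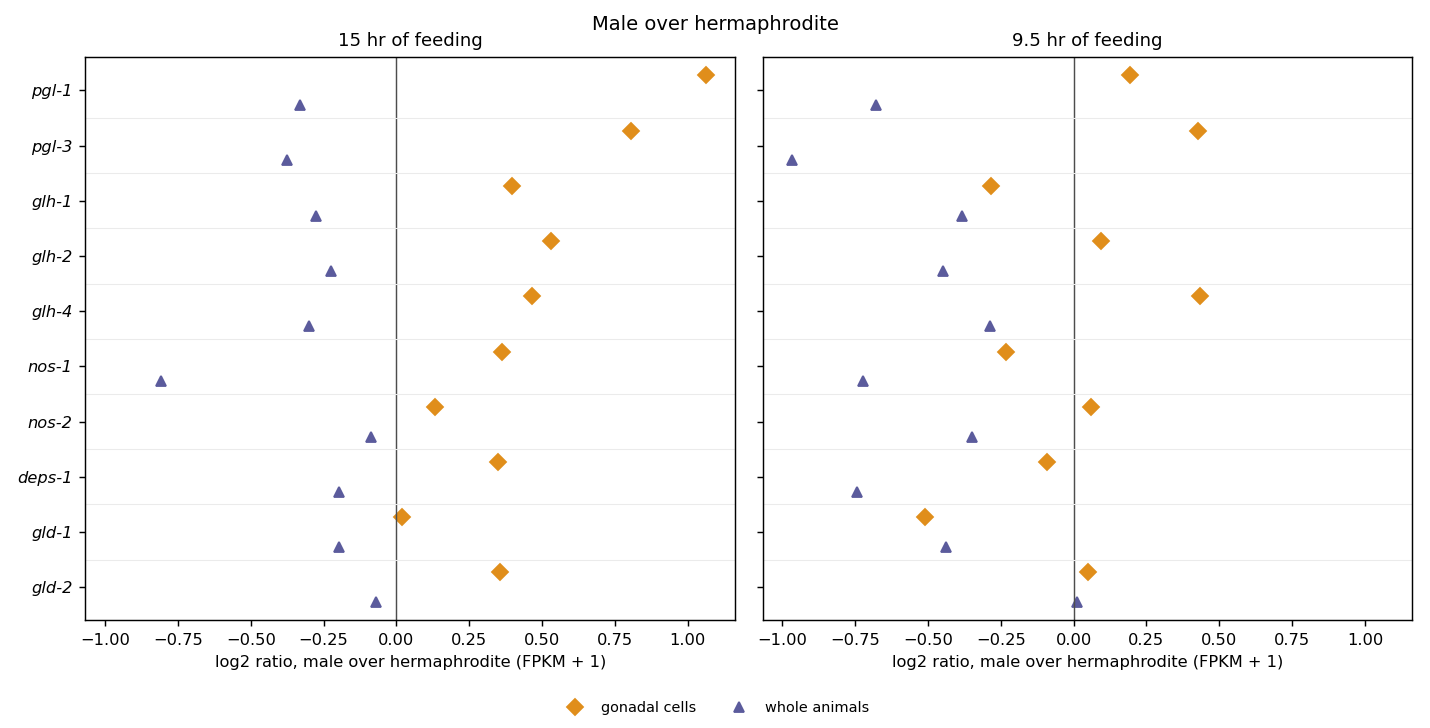
Log2 ratio of male over hermaphrodite for each gene at 15 hr and 9.5 hr, with diamonds for gonadal cells and triangles for whole animals. At 15 hr all diamonds are to the right of 0 and all triangles to the left of it, *gld-1* being the diamond that crosses 0 under other scalings, and *pgl-1* in gonadal cells is the farthest to the right, at 1.06.

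The 2 times were processed and normalised in separate runs, so their levels are set side by side only. In whole animals, *pgl-1*, *pgl-3*, *glh-1* and *deps-1* had higher levels at 15 hr than at 9.5 hr in males, with log2 ratios of 0.94, 0.90, 0.94 and 0.87. The same genes had ratios of 0.59, 0.31, 0.83 and 0.33 in hermaphrodites. *nos-1* went the other way, with ratios of -1.20 in males and -1.12 in hermaphrodites, and *nos-2* had -0.21 and -0.47. Of the 10 genes, 7 were above 0 in males, beside 42.8% of all genes, and 7 in hermaphrodites, beside 36.2%. *nos-1* was the single member at 1 or more in size in each sex, beside 17.9% of all genes in males and 20.8% in hermaphrodites. The medians of all genes were -0.11 and -0.19, and relative to them *gld-2* in males and *glh-2* in hermaphrodites changed sign to 0.04 and 0.15.

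In male gonadal cells, 10 of 10 genes were above 0 for 15 hr over 9.5 hr, beside 51.7% of all genes, *glh-4* and *gld-2* excepted with FPKM scaled to equal sums. Of the 10, only 7 passed the filter on low values that the share of all genes requires. The largest ratio was that of *glh-1*, 1.04, from 35.0 FPKM at 15 hr and 16.5 FPKM at 9.5 hr, and it was the only one at 1 or more in size, beside 23.5% of all genes. *pgl-1* had 0.94, and *glh-4* and *gld-2* had 0.02 and 0.07, against -0.07 and -0.05 after that scaling. In hermaphrodite gonadal cells, 4 of 10 genes were above 0, beside 52.8% of all genes, with a median of -0.05, and none reached 1 in size, beside 23.2% of all genes. Only 6 of the 10 passed the filter there. *glh-1* was again the highest, at 0.36, and *deps-1* the lowest, at -0.33. In male gonadal cells the marker lists went both ways between the times, with medians of 1.17 for hypodermis, 0.60 for coelomocytes and 0.30 for body wall muscle, and of -0.12 for neurons, -0.24 for the intestine, -0.31 for the pharynx and -0.46 for somatic gonad precursors. Their part was not tested.

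**Figure D4:**
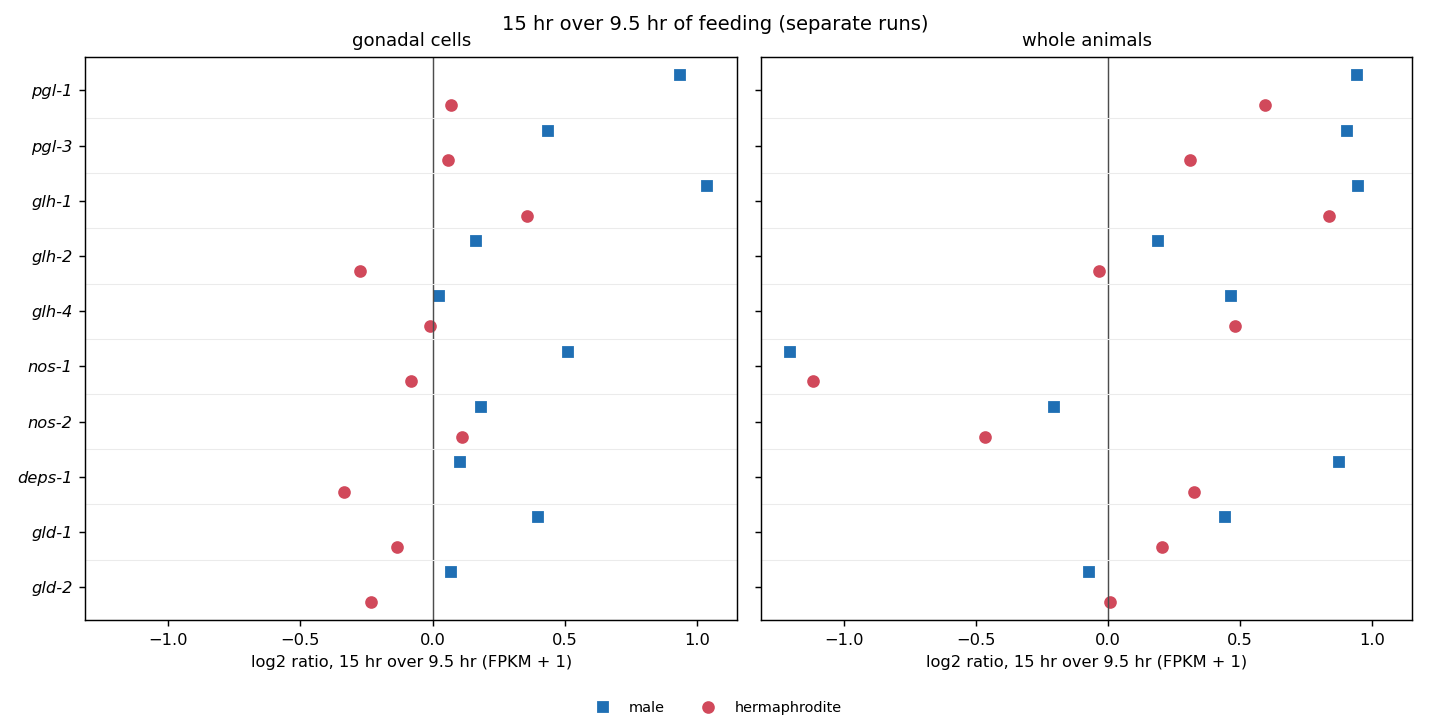
Log2 ratio of 15 hr over 9.5 hr for each gene in gonadal cells and in whole animals, with squares for males and circles for hermaphrodites. In whole animals *nos-1* stands to the left, at -1.20 and -1.12, while *glh-1* and *pgl-1* are at 0.94 in males.

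Other genes of the same machinery did not share one pattern. Of 16 other P granule and germ plasm genes, none passed the cutoff in either direction for gonadal cells over whole animals. Among all genes, 15.4% (male) and 22.2% (hermaphrodite) were lower by the cutoff at 15 hr, and 12.2% and 13.1% at 9.5 hr. A count of 0 of 16 is below these shares, but at 15 hr only 14 passed the filter on low values. The share of all genes higher by the cutoff was not computed. The median ratio of the 16 genes was 0.02 (male) and 0.13 (hermaphrodite) at 15 hr, and 0.18 and -0.15 at 9.5 hr. *csr-1*, which encodes a germline Argonaute, was the lowest, with 7.31 and 11.2 FPKM in male and hermaphrodite gonadal cells at 15 hr, against 23.3 and 31.4 FPKM in whole animals. *oma-2*, an oocyte maturation gene, had a mean ratio of -0.74, and *spn-4* and *pos-1*, which encode RNA-binding proteins of the early embryo, had 0.98 and 0.87. *spn-4* reached 27.9 and 40.0 FPKM in gonadal cells at 15 hr, against 9.50 and 10.3 FPKM in whole animals.

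Of 17 other germline RNA regulators, 3 in males and 4 in hermaphrodites were lower by the cutoff at 15 hr, and 0 and 4 at 9.5 hr, with none higher. With 17 genes, 3 and 4 at 15 hr are close to the 15.4% and 22.2% of all genes. At 9.5 hr, 0 in males is below the 12.2% of all genes, and 4 in hermaphrodites is above the 13.1%. The medians were -0.78 and -0.95 at 15 hr and -0.55 and -0.83 at 9.5 hr. The lowest were *puf-8* and *fbf-1*, which encode PUF-family repressors, *daz-1*, which encodes an RNA-binding protein of the DAZ family, and *fog-3*, which is needed for sperm fate, with mean ratios between -2.38 and -1.98. *puf-8* had 2.30 and 1.60 FPKM in gonadal cells at 15 hr, against 14.9 and 15.3 FPKM in whole animals. Its ratio was -2.26 in males, beside -2.16 for *pgl-1*, and -2.65 in hermaphrodites, beside -3.55. *gld-4*, a second cytoplasmic poly(A) polymerase gene, had a mean ratio of 0.82, beside 0.76 for *gld-2*. It was picked out for comparison with *gld-2*, and *gld-3* and *rnp-8* of the same list had means of -0.95 and 0.16.

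**Figure D5:**
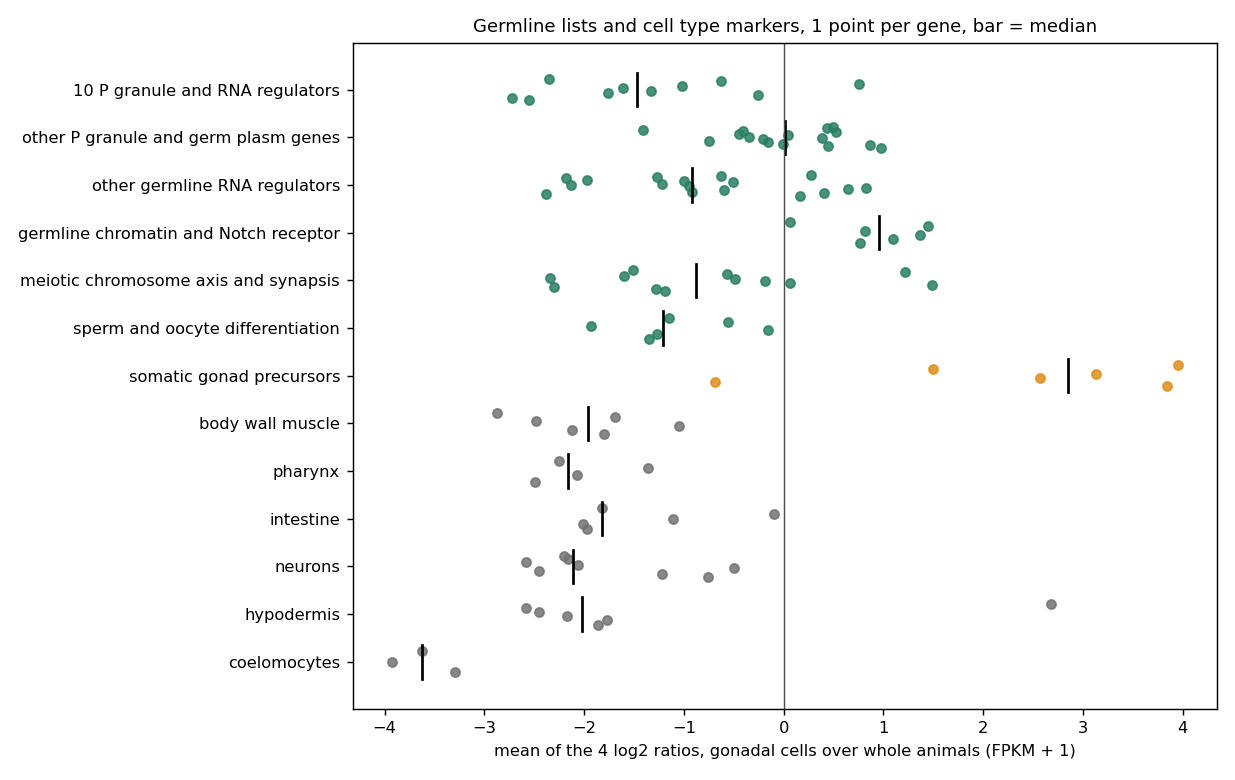
Mean of the 4 log2 ratios of gonadal cells over whole animals, with 1 point per gene and a bar at the median of each list. The 10 genes have a median of -1.47, below that of the other P granule genes (0.02) and above those of the body wall muscle, pharyngeal and neuronal markers, and the somatic gonad markers have a median of 2.85.

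Within the group, patterns over the 8 groups were compared after subtracting the mean of the 4 groups of the same time, as the root mean square difference of log2(FPKM + 1). *pgl-1* and *pgl-3* were nearest to each other, at 0.15, and *glh-2* and *glh-4* were nearest to each other, at 0.19. *glh-1* and *gld-1* were nearest to each other at 0.22, and *deps-1* was nearest to *pgl-3*, at 0.23. *gld-2* was the farthest from any other member, at 0.54. Of 10154 genes with enough variation, the 3 nearest to the median pattern of the members were *F35C8.5* (0.07), *clec-56* (0.09) and *clec-184* (0.09). Many genes came as near, since 54.1% of them were nearer to that median pattern than *pgl-1* and 0.207% were nearer than *glh-2*. These are descriptions over 8 pooled values that share libraries and runs.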

How the data were processed

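Libraries were made by the authors with the TruSeq kit after Ribo-Zero depletion, without poly(A) selection, and single-end 50 base reads were mapped with TopHat 1.4.1 to ce10. Cuffdiff 2.1.1 was run once per time. The deposited levels are FPKM, pooled by the authors within each group. Their comparison columns (fold change, test statistic, p and q) were not used. Single-sample values were not analysed here and depth is unknown, so precision cannot be given. Unused per-sample columns numbered 0.

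Log2 ratios used a pseudocount of 1 FPKM, on genes with at least 1 FPKM in 1 of both groups, in 12 comparisons without a test. The arithmetic of the ratio and its calls was checked on simulated levels of high genes without noise, which says nothing about calls of low genes. The cutoff was a log2 ratio of 2 in size, a reading of the limit the study states, which can also be read as a 2-fold change, a log2 ratio of 1. Counts at 1 are also given. Positions are 1-based on ce10 and are those of the entry, which can span more than the gene. Gene identifiers and strands came from WBcel235.

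The members and 12 lists were chosen with earlier results of these data known. Of 96 list genes 95 were found, 2 by sequence name. *myo-1* was not analysed here. Named list genes are the up to 4 with the largest absolute mean ratio, apart from genes picked out for comparison or after their values were seen. The tables were read with pandas 2.3.3.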

Additional observations from a re-analysis of the deposited data

How the results depend on the processing

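The deposited values are pooled over samples, so leaving out a sample was not possible. No paired analysis was possible because no value of a single sample was analysed and no result comes from a test. Of the 40 log2 ratios of gonadal cells over whole animals, 35 were below 0 in the main setting, with a pseudocount of 0.1 FPKM and with FPKM scaled to equal sums, and 33 after the median of all genes was subtracted. The number of genes lower by the cutoff in males at 9.5 hr, 2 in the main setting, was 4 with a pseudocount of 0.1 FPKM, 1 with at least 1 FPKM required in both groups, and 0 relative to the median of all genes. With at least 1 FPKM in both groups, which removes low genes, it was 2 instead of 4 in hermaphrodites at 15 hr and 2 instead of 4 at 9.5 hr. That filter left 6 genes in hermaphrodites and 7 in males to count at 9.5 hr. The share of all genes was not computed under it, under the smaller pseudocount or after subtraction of the median. With the cutoff at a ratio of 1, the count lower in gonadal cells at 15 hr was 5 in males and 7 in hermaphrodites, and at 9.5 hr it was 5 in males. At that limit, 1 gene was higher in male than in hermaphrodite gonadal cells at 15 hr, 1 was higher at 15 hr than at 9.5 hr in male gonadal cells, and 1 was lower at 15 hr in whole animals of each sex, where the main count was 0. For *nos-2*, *nos-1* and *glh-2* in gonadal cells, under 1 FPKM in most groups, the pseudocount sets much of the ratio.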

Other observations

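Germline genes outside P granules and RNA regulation differed widely among themselves, also within a list. Of 12 genes of the meiotic chromosome axis and of synapsis, 2 in males and 3 in hermaphrodites were lower in gonadal cells by the cutoff at 15 hr, beside 15.4% and 22.2% of all genes, and 0 and 3 at 9.5 hr, beside 12.2% and 13.1%. With 12 genes, the counts at 15 hr are near those shares. *htp-3* and *zim-1*, an axis component and a pairing protein gene, had mean log2 ratios of -2.34 and -2.30, and *htp-2* and *him-3* had -1.60 and -1.51. *syp-3* and *him-8*, by contrast, had means of 1.49 and 1.22 (chosen after their values were seen). *syp-3* had 14.1 and 39.9 FPKM in male and hermaphrodite gonadal cells at 15 hr, against 5.92 and 4.72 FPKM in whole animals. Sperm and oocyte genes were low everywhere, and *rme-2*, the oocyte yolk receptor gene, had the lowest mean ratio among them (-1.94), followed by *spe-9* (-1.35), *spe-26* (-1.27) and *fer-1* (-1.15).

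The 4 MES genes, whose products regulate germline chromatin, were higher in gonadal cells in every comparison, with mean ratios of 1.45 for *mes-2*, 1.36 for *mes-4*, 1.10 for *mes-6* and 0.82 for *mes-3*. *mes-4* had 135 and 112 FPKM in male and hermaphrodite gonadal cells at 15 hr, against 34.9 and 27.1 FPKM in whole animals. *glp-1*, the germline Notch receptor gene, was chosen after its values were seen. It had 141 FPKM in male gonadal cells at 15 hr, against 9.34 FPKM in hermaphrodite gonadal cells, and 16.0 and 13.1 FPKM in male and hermaphrodite whole animals. At 9.5 hr it had 3.94 FPKM in gonadal cells of males and 4.18 FPKM in those of hermaphrodites, against 9.46 and 11.7 FPKM in whole animals. The log2 ratio of male over hermaphrodite gonadal cells at 15 hr was 3.78 for *glp-1*, against 1.06 for *pgl-1* and 0.40 for *glh-1*. Of the 16 other P granule and germ plasm genes, 4 were above 0 and 12 below, where 56.3% of all genes were above 0. Their highest was *mex-3* at 1.15. *che-14*, listed among the hypodermal markers, was also high in gonadal cells, with 58.7 and 58.6 FPKM at 15 hr, against 13.1 and 11.3 FPKM in whole animals.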
